A study of Mus musculus with 6 samples.

Results

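The genes described here are 42 members of the glycolytic pathway and of the hypoxia response: the enzymes from hexokinase to lactate dehydrogenase in their isoforms, glucose and lactate carriers, the kinases that steer the pathway, and genes of the hypoxia-inducible factor HIF with its targets. They were taken by symbol, through the transcript accession of each array probe, and all 42 had a named probe among 20659 named genes. Cultured CD63+ cells of adult mouse liver were hybridised to 6 one-colour Agilent arrays. CD63 is a tetraspanin of late endosomes, here the surface marker used for sorting. The DDC injury group had 3 samples, from mice whose livers had been damaged by DDC, a compound that disturbs haem synthesis and injures bile ducts and hepatocytes, and the no-injury group had 3 samples from undamaged livers. Cells of both groups were grown in a DMEM/F12 medium with serum, HGF, EGF, insulin-transferrin-selenium, dexamethasone and nicotinamide, so the values describe cultures. VEGF and bFGF were added to cultures that the labels name P6, P7 and P9. These names match no sample title, but the files of 2 no-injury samples carry the numbers 7 and 9, so these factors may have been given to no-injury cultures, and their addition cannot be told apart from the absence of injury. The design text speaks of 6 cell lines. Strain, age and sex of the mice are not given in the sources used here, nor is whether the samples of a group came from separate animals, so p-values measure the spread between these samples, which may be technical.

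Glycolysis turns glucose into pyruvate, and lactate dehydrogenase turns pyruvate into lactate. Most steps can be carried out by several isoenzymes that differ between tissues, and adult hepatocytes use the liver forms, such as Pklr for the last step. HIF is a pair of subunits whose alpha subunit is hydroxylated and destroyed when oxygen is plentiful. When it is stable it binds a short DNA word, the hypoxia response element, near many glycolytic genes. PDK1, a kinase among its targets, switches off the use of pyruvate by pyruvate dehydrogenase in mitochondria.

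The hypoxia response element has the core ACGTG or GCGTG, and its letters were looked for on both strands in RefSeq promoter windows of assembly GRCm38.p6 that run from 250 bases before to 50 after each gene start. The word CACGTG holds the core on both strands and was matched on each. The stretches below run from position -160 to -21 relative to the start, 5′ to 3′ along the gene, with the matched letters in capitals. They are shown because 3 of the genes are glycolytic or regulatory enzymes that rose and 2 are hypoxia-linked genes that were not called. Ankrd37 was the only gene called among the 5 members grouped here as HIF targets, though other members can be HIF targets too.
Ldha: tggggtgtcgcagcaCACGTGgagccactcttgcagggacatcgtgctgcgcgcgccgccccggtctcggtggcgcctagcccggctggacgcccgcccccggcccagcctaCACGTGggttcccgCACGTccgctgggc
Pgk1: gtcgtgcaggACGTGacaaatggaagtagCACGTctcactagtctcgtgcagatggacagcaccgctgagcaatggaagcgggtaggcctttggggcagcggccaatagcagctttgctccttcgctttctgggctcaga
Pfkfb4: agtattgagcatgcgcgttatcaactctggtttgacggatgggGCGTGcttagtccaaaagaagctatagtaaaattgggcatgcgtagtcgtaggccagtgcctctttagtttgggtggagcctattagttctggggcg
Ankrd37: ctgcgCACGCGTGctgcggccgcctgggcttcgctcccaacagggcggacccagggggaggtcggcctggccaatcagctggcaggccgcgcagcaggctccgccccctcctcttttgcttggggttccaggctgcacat
Bnip3: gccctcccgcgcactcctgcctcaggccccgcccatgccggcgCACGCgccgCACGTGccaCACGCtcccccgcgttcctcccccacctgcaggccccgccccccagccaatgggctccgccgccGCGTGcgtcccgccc
Slc2a1: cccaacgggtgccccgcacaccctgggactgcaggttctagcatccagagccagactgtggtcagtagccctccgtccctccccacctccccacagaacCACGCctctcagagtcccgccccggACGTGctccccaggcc
The Ldha stretch lies at chr7:46845644-46845783 on the plus strand and held 5 matches. The Pgk1 stretch lies at chrX:106186940-106187079 on the plus strand and held 2. The Pfkfb4 stretch lies at chr9:108991742-108991881 on the plus strand and held 1. The Ankrd37 stretch lies at chr8:45999871-46000010 on the minus strand and held 2. The Bnip3 stretch lies at chr7:138909527-138909666 on the minus strand and held 5. The Slc2a1 stretch lies at chr4:119108585-119108724 on the plus strand and held 2.

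Of the 42 members, 39 matched a promoter window, and Slc2a3, Epas1 and Ndrg1 did not. The core was present in at least 1 window of 34 of these 39 genes (87.2%), against 61.5% of the tested genes with a window. Counted by window, it was in 44 of 59 member windows (74.6%) and in 43.8% of all windows of this length. These comparisons are not like with like. A gene with more windows has more chances of a match, some member windows overlap, and the share by window is not limited to tested genes. Within the members the core did not separate the genes by their response. It was found in 9 of 10 genes called higher, in 4 of 5 called lower and in 21 of 24 others (87.5%). The letters describe these windows and say nothing of binding.

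Signals are log2 of the processed intensity minus the 75th percentile of each array, so 0 is that percentile. Each gene is represented by its brightest probe, values of different probes are not compared as levels, and a difference is DDC injury minus no injury with the standard error of a limma fit. No-injury replicates 1 and 3 were averaged and counted as 1 sample. They were compared by a chi-square test over 137 probes printed 10 times and brighter than the 75th percentile. It found no difference beyond the noise of repeated spots (chi-square 148 on 136 degrees of freedom, p = 0.221), with a spread 1.04 times that noise. The pairs with replicate 2 differed (chi-square p = 6.59e-15 and 3.67e-54), with spreads of 1.496 and 2.044 times that noise. Pairs of DDC injury samples had spreads of 4.891 to 18.49 times it, so the no-injury arrays lay closer together than any DDC injury pair. With dim probes included, over 258 probes, replicates 1 and 3 differed too (chi-square p = 1.5e-11). The comparison therefore has 3 DDC injury samples and 2 no-injury samples. Most calls rest on counting no-injury replicate 2 as a separate sample, and whether it was a separate culture was not tested. The 75th percentile of intensity was 1441 to 2271, 65.0% to 74.8% of spots were well above background, and no spot was saturated. The DDC injury samples varied more than the no-injury samples, with a larger SD in 39 of the 41 tested members and a median SD of 0.204 against 0.0311. Scans held 1 group each, so scan and group cannot be told apart, and the first scan day held DDC injury replicate 1 alone. In cultures measured in bulk, fewer cells of a type and less RNA per cell cannot be told apart either.

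Of 41 members tested, 10 were higher in DDC injury, 5 were lower and 26 were not called at an adjusted p under 0.05 (limma, Benjamini-Hochberg over 15625 genes). Of all tested genes 17.7% were called higher and 15.8% lower, so 33.4% were called in either direction, against 36.6% of the members. The share called among members was thus near that of all genes. The median difference of the members was 0.06, against -0.07 for all genes. The groups did not overlap in 26 members (63.4%), against 62.2% of all genes. Without no-injury replicate 2, which leaves that group 1 sample, 2 members were called higher (Hk2 and Pfkfb1) and 1 lower (Pdk2), and the lone sample is then assumed to vary like the others. Every other call among the members was lost in that fit. Within hexokinase, phosphofructokinase, pyruvate kinase and lactate dehydrogenase 1 isoform was called higher and no other was called.

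**Figure D1:**
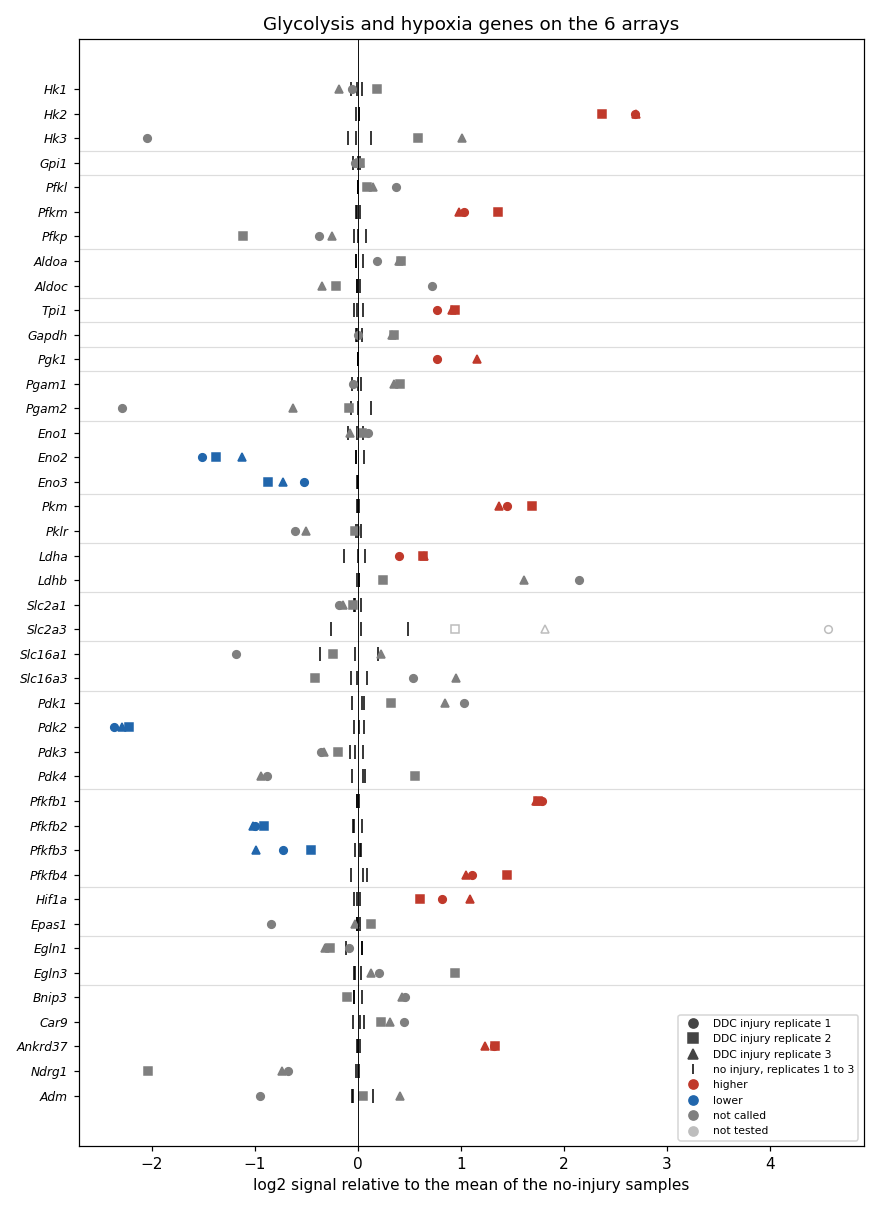
Signals of the 42 genes on the 6 arrays, as log2 relative to the mean of the no-injury samples (x axis), with genes in pathway order. Circles, squares and triangles are DDC injury replicates 1 to 3, black ticks the no-injury replicates, and colour gives the call. Hk2 and Pfkfb1 lie to the right of their no-injury ticks in every DDC injury sample, and Pdk2 lies to the left in every one.

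Hexokinase traps glucose as glucose 6-phosphate, and Hk2, the form bound to mitochondria in muscle, fat and many tumours, showed the largest difference among the tested members. Its signal was 1.33, 1.01 and 1.34 in DDC injury and -1.34, -1.37 and -1.34 in no injury. All DDC injury samples lay above all no-injury samples. Hk2 was 6.00-fold higher, a difference of 2.59 ± 0.15 (limma adjusted p = 0.00156). Hk1, the widely expressed hexokinase, was 3.86, 4.11 and 3.74 in DDC injury and 3.86, 3.96 and 3.91 in no injury. Those values overlapped, and the difference was -0.02 ± 0.15 (limma adjusted p = 0.936). The probe of Hk3, the hexokinase of blood cells, was dim, with DDC injury values from -9.31 to -6.25, and gave -0.15 ± 1.03 (limma adjusted p = 0.925). DDC injury replicate 1 was its lowest sample, and without it Hk3 was called higher, by 0.80 (limma adjusted p = 0.0419). Gpi1, which makes fructose 6-phosphate, differed by 0.00 ± 0.09 (limma adjusted p = 0.973).

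Phosphofructokinase commits sugar to glycolysis and exists as liver (Pfkl), muscle (Pfkm) and platelet (Pfkp) forms. Pfkm rose from 0.40, 0.37 and 0.36 in no injury to 1.41, 1.74 and 1.36 in DDC injury. The groups did not overlap, and the difference was 1.13 ± 0.15, or 2.18-fold (limma adjusted p = 0.0102). Pfkl was not called, at 0.20 ± 0.13 (limma adjusted p = 0.289). Pfkp was -0.94, -1.68 and -0.82 in DDC injury and -0.49, -0.61 and -0.56 in no injury. The DDC injury samples were all lower, replicate 2 most, and the difference of -0.58 ± 0.30 was not called (limma adjusted p = 0.217). Without replicate 2 it was -0.31 and not called either (limma adjusted p = 0.0662). The other, dimmer Pfkp probe read -5.27, -3.54 and -3.80 in DDC injury and -4.09, -4.26 and -3.97 in no injury. Its groups overlapped, with a difference of -0.06 (limma adjusted p over probes 0.947).

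Aldolase splits the sugar chain, triose phosphate isomerase makes both products usable, and the next enzymes harvest ATP and NADH. Aldoa gave 0.33 ± 0.12 and Aldoc 0.06 ± 0.37, and neither was called (limma adjusted p = 0.1 and 0.923). Tpi1 was 4.02, 4.19 and 4.16 in DDC injury and 3.21, 3.24 and 3.30 in no injury. It rose by 0.87 ± 0.10, or 1.83-fold (limma adjusted p = 0.00754), and its other probe gave 1.29. Pgk1, the first ATP-making enzyme, was 4.81 and 5.20 in DDC injury replicates 1 and 3 and 4.04, 4.05 and 4.05 in no injury. The spot of DDC injury replicate 2 carried an outlier mark and was left out, and the difference over the other samples was 0.96 ± 0.19 (limma adjusted p = 0.0369). With that spot kept, at 3.81 and so below every no-injury sample, the difference was 0.56 and no longer called (limma adjusted p = 0.4). The call was also lost with normexp (limma adjusted p = 0.0537), with no filter on dim probes (0.0625), with the replicate block (0.0542) and in the authors' normalized values (difference 0.51, adjusted p = 0.313).

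Gapdh, the dehydrogenase often used as a reference gene, had 7 probes that disagreed in size. Its brightest probe read 5.64, 5.99 and 5.97 in DDC injury and 5.68, 5.62 and 5.63 in no injury. Replicate 1 of DDC injury lay among the no-injury values, and the difference of 0.23 ± 0.15 was not called (limma adjusted p = 0.309). All 6 other Gapdh probes were higher, by 0.60 to 1.06 (limma adjusted p over probes 0.00875 to 0.0306). With the mean of its probes Gapdh was called, at 0.70 ± 0.10 (limma adjusted p = 0.0109). The brightest probe turned to -0.03 under quantile normalization, while the 6 others stayed above 0 with it, with normexp and in the authors' normalized values. Genes with processed copies elsewhere in the genome, as Gapdh has, may share signal with them on a probe, and probe sequences were not used here.

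Pgam1 and Pgam2 are the brain and muscle forms of phosphoglycerate mutase. Pgam1 differed by 0.24 ± 0.18 and Pgam2 by -1.0 ± 0.72, and neither was called (limma adjusted p = 0.363 and 0.35). Of the enolases, Eno1 is the common form, Eno2 the neuronal and Eno3 the muscle form. Eno1 was 4.95, 4.88 and 4.78 in DDC injury and 4.75, 4.90 and 4.84 in no injury, a difference of 0.02 ± 0.11 (limma adjusted p = 0.895). Eno2 fell from -2.53, -2.62 and -2.62 to -4.10, -3.97 and -3.71. It did not overlap and was 2.53-fold lower, by -1.34 ± 0.15 (limma adjusted p = 0.00672). Eno3 was -1.07, -1.41 and -1.26 in DDC injury and -0.55, -0.54 and -0.54 in no injury. It was lower in every DDC injury sample, by -0.71 ± 0.14 (limma adjusted p = 0.0241), and lost this call without DDC injury replicate 3 (limma adjusted p = 0.0743). Beside these, the summed linear level of 7 skeletal muscle markers, relative to the 75th percentile, was 0.01 to 0.07 in DDC injury and 0.07 to 0.08 in no injury. That of 6 neural markers was 1.13 to 1.86 and 1.91 to 2.23. 1 of 5 tested genes of each list was lower, against 15.8% of all genes, and such sums follow their brightest probes. The muscle gene, Acta1, was well above background on 1 DDC injury array. Ckm, Myh4 and Des were so on 0 DDC injury arrays, so the muscle sums lie near the floor and are not measured levels. The part of muscle and neural cells in the enolase values was not tested.

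Pyruvate kinase makes pyruvate and ATP, and Pkm is the form of most tissues while Pklr serves liver and red cells. Pkm was 4.66, 4.90 and 4.58 in DDC injury and 3.20, 3.21 and 3.22 in no injury. All DDC injury samples were higher, by 1.5 ± 0.14 or 2.83-fold (limma adjusted p = 0.0041). Which Pkm splice forms its 1 probe detects was not analysed here. Pklr was -3.09, -2.51 and -2.99 against -2.45, -2.50 and -2.48, and its -0.38 ± 0.21 was not called (limma adjusted p = 0.242). Hepatocyte markers were lower beside it: 5 of 8 tested were called lower and none higher, against 15.8% and 17.7% of all genes. Among those called, Apoa1 was well above background on 0 DDC injury arrays and Fgb on 1, and both on 3 no-injury arrays. They passed the filter through the no-injury group, and their DDC injury values lie near the floor. The summed level of the 8 markers, set mostly by Ttr and Hnf4a, was 11.1 to 17.7 in DDC injury and 29.8 to 34.1 in no injury. Alb, the plasma protein of hepatocytes, was lower by -6.14 ± 0.65 (limma adjusted p = 0.00575), and by -3.89 with normexp. Their part in the Pklr value was not tested.

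Lactate dehydrogenase interconverts pyruvate and lactate, and Ldha, the form that favours lactate, was higher. Its brightest probe read 5.16, 5.39 and 5.40 in DDC injury and 4.62, 4.83 and 4.76 in no injury. The groups did not overlap, and the difference was 0.56 ± 0.13 (limma adjusted p = 0.0353). The other 2 Ldha probes gave 1.69 and 1.73, and the mean of probes 1.33 ± 0.09 (limma adjusted p = 0.00255), so the size depended on the probe. The brightest probe lost its call without DDC injury replicate 2 or 3 (limma adjusted p = 0.053 and 0.0953). It was also lost with quantile normalization (0.34, limma adjusted p = 0.0504), with scan as a random block (0.0523) and with no filter on dim probes (0.0663). Ldhb, the heart form, read -1.35, -3.25 and -1.88 in DDC injury and -3.48, -3.50 and -3.48 in no injury. Every DDC injury sample was higher, but replicate 2 only slightly, and 1.33 ± 0.61 was not called (limma adjusted p = 0.17).

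**Figure D2:**
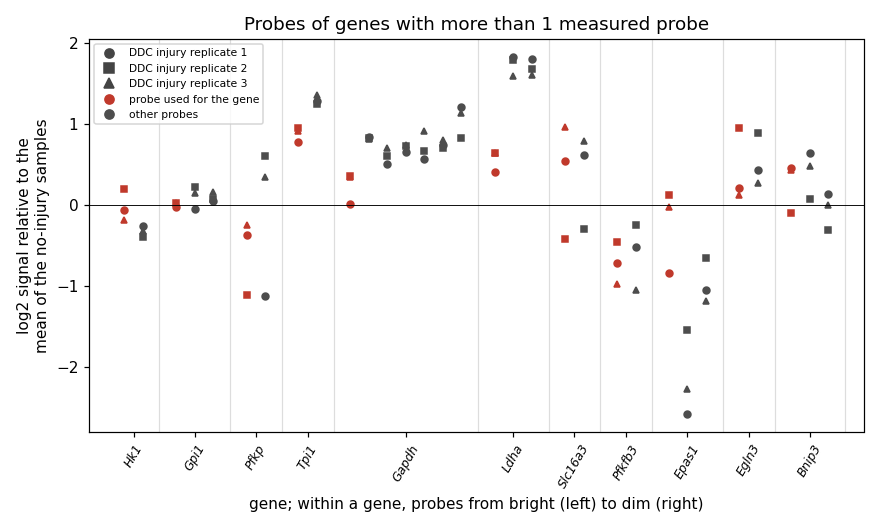
Probes of the genes with more than 1 measured probe, ordered within a gene from bright to dim, as log2 signal of each DDC injury sample relative to the mean of the no-injury samples (y axis). Red marks the probe that represents the gene. The brightest Gapdh and Ldha probes lie below the other probes of these genes, and the brightest Epas1 probe lies above its other 2.

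No transporter was called. Slc2a1, the glucose carrier GLUT1 and a HIF target, was 3.51, 3.64 and 3.54 in DDC injury and 3.66, 3.72 and 3.66 in no injury. Its difference was -0.12 ± 0.10 (limma adjusted p = 0.397). Slc2a3, the carrier GLUT3, was well above background on 2 of 3 DDC injury arrays and on 0 no-injury arrays, so it was not tested. It read -3.76, -7.38 and -6.51 in DDC injury and -7.83, -8.58 and -8.30 in no injury, so replicate 1 was far above the other DDC injury samples. With no injury bounded, Slc2a3 was 3.42-fold higher in DDC injury, and 1.64-fold without replicate 1. DDC injury replicate 2, at -7.38, was not well above background, where the lowest such signal was -6.95. It entered the mean as read, so these figures are not strict lower limits. Each bound compares the DDC injury mean with the lowest signal well above background or the probe's own signal, whichever was higher on each no-injury array. The lactate carriers Slc16a1 and Slc16a3 gave -0.40 ± 0.47 and 0.36 ± 0.45 (limma adjusted p = 0.558 and 0.583).

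Pyruvate dehydrogenase kinases switch off pyruvate dehydrogenase, the mitochondrial enzyme complex that uses pyruvate, and the 4 genes did not move alike. Pdk2, the most widespread form, read -2.93, -2.79 and -2.86 in DDC injury and -0.51, -0.60 and -0.56 in no injury. It was 4.89-fold lower, by -2.29 ± 0.10 (limma adjusted p = 0.00102), with no overlap. Pdk1, the HIF target, read -0.73, -1.43 and -0.91 against -1.69, -1.81 and -1.72. All DDC injury samples were higher, but 0.73 ± 0.25 was not called (limma adjusted p = 0.0874). Pdk1 was called with normexp (0.88, limma adjusted p = 0.0483), in the authors' normalized values (0.95, adjusted p = 0.035) and with all 6 arrays counted, without and with the replicate block (0.0306 and 0.0455). Pdk3 gave -0.29 ± 0.11 and Pdk4, the form induced by fasting, -0.42 ± 0.53 (limma adjusted p = 0.111 and 0.589).

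The 4 Pfkfb genes encode enzymes that make and remove a sugar bisphosphate signal, the strongest activator of phosphofructokinase, and all 4 were called. Pfkfb1, the liver and muscle form, read 0.04, 0.01 and -0.02 in DDC injury and -1.75, -1.74 and -1.75 in no injury. It was 3.38-fold higher, by 1.76 ± 0.09 (limma adjusted p = 0.00132), and the groups lay far apart. Pfkfb4 read -2.22, -1.88 and -2.28 against -3.28, -3.40 and -3.24, and rose by 1.20 ± 0.16 (limma adjusted p = 0.0101). Pfkfb2, the heart form, read -0.76, -0.67 and -0.78 in DDC injury and 0.20, 0.28 and 0.20 in no injury. It was lower in all 3 samples, by -0.97 ± 0.10 (limma adjusted p = 0.00515). Pfkfb3, whose kinase activity far exceeds its phosphatase activity, read 0.74, 1.01 and 0.48 against 1.48, 1.44 and 1.49. It was lower by -0.72 ± 0.19 (limma adjusted p = 0.0472), the highest adjusted p among the called members, and its other probe gave -0.61 without passing. The Pfkfb3 call was lost without DDC injury replicate 1 or 3 (limma adjusted p = 0.0716 and 0.0783). It was also lost with scan as a random block (limma adjusted p = 0.0757), with the mean of its probes (0.0911) and with no filter on dim probes (0.0757).

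Isoforms of 1 step were set against each other within each array, since a ratio takes out the scaling of the array. The shift of a log2 ratio is its mean in DDC injury minus its mean in no injury. Of 28 pairs, 21 did not overlap between the groups and 16 shifted by at least 1. Taken singly, 62.2% of all tested genes did not overlap, and no share over other pairs of genes was computed. Pairs of 1 step reuse the same genes, so these counts partly restate the single-gene differences. The exact permutation test used here doubles the smaller tail, so with 3 against 2 samples it cannot go below p = 0.2. It could call no pair whatever the shift, and the shifts are given as sizes with their errors. In every DDC injury sample Hk1 was lower relative to Hk2 than in any no-injury sample, with a shift of -2.60 ± 0.28. Pkm shifted relative to Pklr by 1.88 ± 0.13, and Pfkm relative to Pfkp by 1.70 ± 0.50. In the enolases, Eno1 shifted relative to Eno2 by 1.36 ± 0.22 and relative to Eno3 by 0.73 ± 0.12. Among the kinases, Pdk1 shifted relative to Pdk2 by 3.02 ± 0.33, and Pfkfb1 relative to Pfkfb2 by 2.73 ± 0.05 and to Pfkfb3 by 2.48 ± 0.19. The pairs Ldha and Ldhb (-0.77 ± 0.81) and Aldoa and Aldoc (0.28 ± 0.53) overlapped between the groups. All ratios use the brightest probe of each gene, and their sizes can depend on that choice. The other Ldha probes rose by 1.69 and 1.73, more than the probe used, and the other Pfkp probe differed by -0.06.

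**Figure D3:**
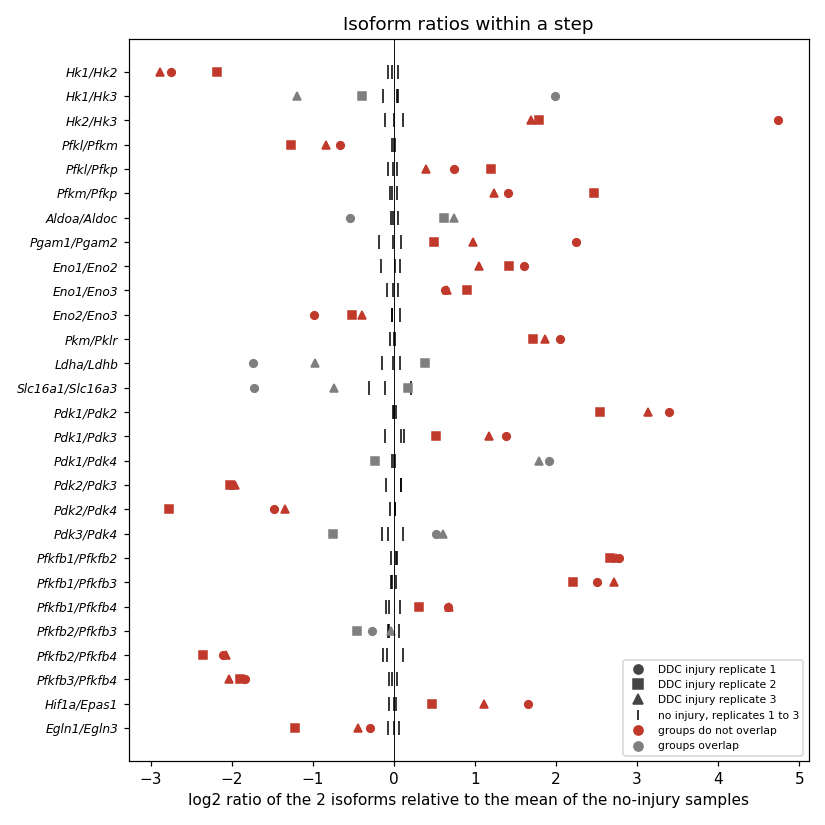
Log2 ratios of 28 isoform pairs of 1 step, relative to the mean of the no-injury samples (x axis). Symbols are DDC injury replicates 1 to 3, black ticks the no-injury replicates, and red marks the 21 pairs whose groups do not overlap. The kinase pairs Pdk2/Pdk3, Pfkfb1/Pfkfb2 and Pfkfb3/Pfkfb4 have DDC injury samples that lie close together and away from no injury.

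Of the 2 HIF alpha subunits, Hif1a was higher. It read 1.78, 1.56 and 2.04 in DDC injury and 0.92, 0.98 and 0.95 in no injury, a difference of 0.83 ± 0.17 without overlap (limma adjusted p = 0.028). This is the transcript, while the protein is set mainly by its stability. Epas1, which encodes the second HIF alpha subunit, read 2.59, 3.56 and 3.40 against 3.46, 3.43 and 3.42 by its brightest probe. The values overlapped, and -0.25 ± 0.33 was not called (limma adjusted p = 0.609). The other 2 Epas1 probes were lower, by -2.13 and -0.96 (limma adjusted p over probes 0.0164 and 0.0294), and with the mean of probes Epas1 was called lower, at -1.11 ± 0.26 (limma adjusted p = 0.0387). The HIF prolyl hydroxylases, which mark HIF for destruction, were not called: Egln1 gave -0.23 ± 0.12 and Egln3 0.43 ± 0.29 (limma adjusted p = 0.224 and 0.334).

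The 5 members grouped here as HIF targets did not move together, and other members, among them Slc2a1 and Pdk1, are HIF targets too. Ankrd37 read -1.48, -1.47 and -1.56 in DDC injury and -2.80, -2.81 and -2.77 in no injury. It was higher in every DDC injury sample, 2.45-fold on average, by 1.29 ± 0.09 (limma adjusted p = 0.0026). Car9, the carbonic anhydrase often used as a hypoxia marker, read -4.12, -4.35 and -4.26 against -4.55, -4.61 and -4.51. Its 0.33 ± 0.12 did not overlap but was not called (limma adjusted p = 0.0983). Bnip3, a mitophagy receptor, read 2.53, 1.97 and 2.51 against 2.03, 2.12 and 2.03, and 0.26 ± 0.22 was not called (limma adjusted p = 0.417). Ndrg1 pointed the other way, at 3.69, 2.33 and 3.63 against 4.36, 4.37 and 4.35. All DDC injury samples were lower, yet -1.15 ± 0.48 was not called (limma adjusted p = 0.144). Adm, a vasodilator peptide, gave -0.16 ± 0.45 (limma adjusted p = 0.809).

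The other HIF target genes, a list of 33 with 30 tested, had a median difference of 0.51, against -0.07 for all genes. In this list 12 were called higher and 2 lower, while 17.7% of all tested genes were called higher and 15.8% lower. The list was chosen with earlier results of these data known, so its median and counts are not independent of them. Angptl4, a lipase inhibitor, rose by 2.37 ± 0.10 (limma adjusted p = 0.000858). Ak4, a mitochondrial adenylate kinase, rose by 3.22 ± 0.14 (limma adjusted p = 0.00102), and Plod2, a collagen lysyl hydroxylase, by 1.82 ± 0.12 (limma adjusted p = 0.00221). Rora, a nuclear receptor, fell by 4.39 ± 0.15 (limma adjusted p = 0.000631). When all 3 no-injury arrays were merged into a single sample, the counts were 2 higher (Ak4 and Angptl4) and 1 lower (Rora).

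**Figure D4:**
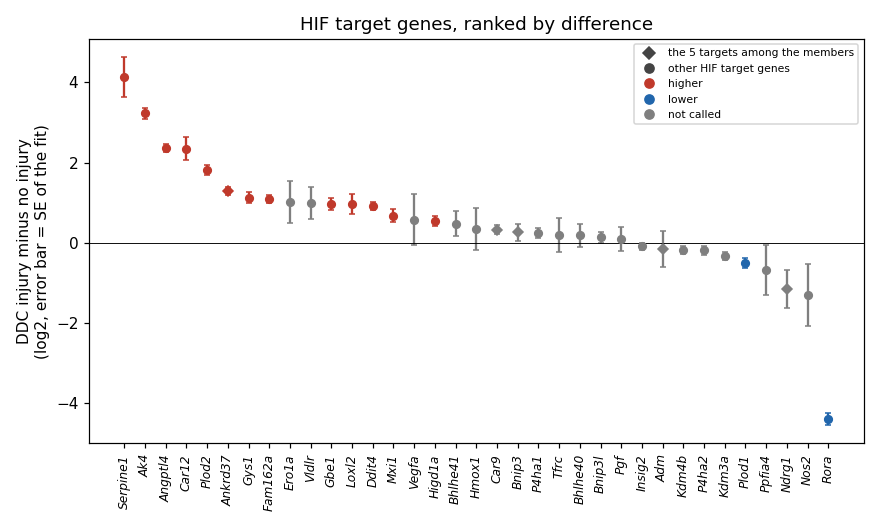
Difference between DDC injury and no injury (y axis, log2, bars are the standard error of the fit) for the 5 members grouped as HIF targets (diamonds) and the other HIF target genes (circles), ranked. Colour gives the call. Ankrd37 is the only diamond called, and Rora lies lowest.

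DDC injury replicates 1 and 2 each stood apart in part of these genes, features chosen after the values were seen. Replicate 1 was at least 0.5 below both other DDC injury samples in 5 of 40 members with 6 values (12.5%), namely Adm, Epas1, Hk3, Pgam2 and Slc16a1, against 19.5% of all genes. It was at least 0.5 above both in Aldoc and Ldhb, 2 members (5.0%), against 2.53% of all genes. Without replicate 1, 11 members were called higher, with Hk3 and Aldoa (0.41, limma adjusted p = 0.045) newly called, and 4 lower. Replicate 2 was at least 0.5 below both other DDC injury samples in 6 of 40 members with 6 values (15.0%), namely Bnip3, Ldhb, Ndrg1, Pdk1, Pfkp and Slc16a3. The share was 6 of 30 for the other HIF target genes (20.0%), among them Vegfa and Ero1a, and 8.41% for all genes. It was at least 0.5 above both in 3 members (7.5%), Egln3, Pdk4 and Pgam2, against 6.11% of all genes. Without replicate 2, 13 members were called higher and 9 lower. Newly called higher were Ldhb (1.88 ± 0.22), Pdk1 (0.94 ± 0.10), Bnip3 (0.44 ± 0.07) and Car9 (0.38 ± 0.09), with limma adjusted p of 0.0141, 0.0122, 0.0223 and 0.049. Newly called lower were Pdk4 (-0.91 ± 0.08), Ndrg1 (-0.71 ± 0.06), Pklr (-0.56 ± 0.07) and Pdk3 (-0.34 ± 0.07), with limma adjusted p of 0.00824, 0.0088, 0.0172 and 0.0434. Ldha alone lost its call. All genes called rose as well, to 3693 higher and 3146 lower.

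Neighbouring routes were described by lists chosen for their pathway. Beside their counts, 17.7% of all tested genes were called higher and 15.8% lower, or 33.4% in either direction. The pentose phosphate pathway, which makes NADPH and ribose from glucose 6-phosphate, had 3 of 8 tested genes higher and none lower (median 0.30): G6pdx rose by 1.20 ± 0.14, Rpe by 0.73 ± 0.14 and Tkt by 0.58 ± 0.12 (limma adjusted p = 0.00677, 0.0207 and 0.0269). Rpe lost its call with normexp and in the authors' normalized values (limma adjusted p = 0.0798 and 0.0835), and Tkt without DDC injury replicate 3 (0.0787) and with no filter (0.0531). Of 21 tested other genes of glycolysis and gluconeogenesis, 1 was higher and 4 lower (median -0.24). Ldhd, a mitochondrial lactate dehydrogenase, fell by 1.53 ± 0.18 and the sugar carrier Slc2a8 by 0.55 ± 0.12, while the phosphatase Minpp1 rose by 0.64 ± 0.09 (limma adjusted p = 0.00689, 0.0333 and 0.0114). Slc2a8 lost its call without DDC injury replicate 3 (limma adjusted p = 0.0915) and with no filter on dim probes (0.064).

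Of 10 tested genes for pyruvate entry to mitochondria and for pyruvate dehydrogenase, 1 was higher and 3 lower (median -0.17), while 33.4% of all tested genes were called. Mpc2, a subunit of the mitochondrial pyruvate carrier, fell by 1.31 ± 0.10, Pdpr by 1.0 ± 0.14 and Dlat, a core enzyme of pyruvate dehydrogenase, by 0.77 ± 0.11 (limma adjusted p = 0.00274, 0.0101 and 0.0114). The probe of Pdpr was dim, and its call was lost with normexp (-0.17, limma adjusted p = 0.622), quantile normalization (-0.72, 0.098) and the authors' normalized values (-0.43, 0.0633). Pdp1, a phosphatase that activates pyruvate dehydrogenase, rose by 0.46 ± 0.10 (limma adjusted p = 0.0344), a call lost without DDC injury replicate 1 or 3 (0.0531 and 0.0653), with scan as a random block (0.0531), with the mean of its probes (0.27, 0.116) and with no filter (0.0731). Of 12 tested genes of oxygen sensing and HIF subunits, 3 were higher and 3 lower (median -0.10), and in the authors' normalized values 1 was higher and 5 lower. Hif3a fell by 1.22 ± 0.09 and P4htm, a transmembrane prolyl hydroxylase, by 1.75 ± 0.18, while Eloc and Rbx1, subunits of the ubiquitin ligase that removes HIF alpha, rose by 0.65 ± 0.12 and 0.56 ± 0.12 (limma adjusted p = 0.00274, 0.00553, 0.0222 and 0.0284). With the mean of its probes Hif3a was -0.47 and not called (limma adjusted p = 0.113), and P4htm was -0.76 with normexp and -1.03 in the authors' normalized values. Eloc lost its call with normexp and in the authors' normalized values (limma adjusted p = 0.0625 and 0.142), and Rbx1 without DDC injury replicate 3 (0.0802), with the mean of its probes (0.16) and with no filter (0.0565). None of these 4 pathway lists had a gene called when all 3 no-injury arrays were merged into a single sample.

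Cell type markers gave the setting of these differences, beside 17.7% of all genes called higher and 15.8% lower. A summed level adds probes of unlike brightness, so it follows the brightest markers, mostly Spp1 for cholangiocyte and Cd14 for myeloid markers. Of cholangiocyte markers 3 of 7 tested were lower, with a summed level of 51.1 to 56.3 in DDC injury and 60.9 to 61.7 in no injury. Of myeloid markers 1 of 7 was lower, with summed levels of 2.95 to 6.38 and 7.55 to 7.88. None of 5 tested endothelial and 3 tested erythroid markers was called, and 1 of 6 stellate and fibroblast markers was higher. Their summed levels were 0.17 to 0.54 in DDC injury and 0.51 to 0.78 in no injury for endothelial, 0.03 to 1.18 and 1.06 to 3.56 for erythroid, and 0.20 to 1.06 and 0.36 to 0.52 for stellate and fibroblast markers. DDC injury replicate 1 was at least 0.5 below both other DDC injury samples in 19.5% of all genes. This held in 4 of 5 endothelial, 3 of 3 erythroid, 5 of 6 stellate and fibroblast and 5 of 5 skeletal muscle markers. It also held in 5 of 8 hepatocyte, 4 of 7 myeloid and 1 of 5 neural markers, but in 0 of 7 cholangiocyte markers. Of the neural markers 2 were at least 0.5 above both, against 2.53% of all genes. This feature was chosen after the values were seen, and some of these values lie near the floor. Hbb-bt, a haemoglobin chain, read -9.23 in DDC injury replicate 1 and -1.84 and -1.54 in replicates 2 and 3. Their part in the members' values was not tested.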

How the data were processed

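Per the labels, RNA was amplified and labelled with Cy3. Per the file headers, Feature Extraction 11.0.1.1 read the arrays, and the deposited processed signal is an intensity, background-subtracted and detrended per array. The deposited value table holds log2 values normalized by the authors and served as an alternative. Of 39429 probes, 27234 had 1 symbol through RefSeq accessions (GRCm38.p6) and 12195 had none. Spots marked as outliers were left out, and repeated spots averaged. log2 signal minus the array's 75th percentile was compared with limma 3.58.1 in R 4.3.3, keeping genes whose brightest probe exceeded background clearly on 3 or more of 6 arrays with 2 or more values per group. Normexp (offset 50) used median spot signals, since the files used here hold no mean signal. Members and lists were chosen with earlier results of these data known. The text names every member and at most 4 called genes per pathway list, by adjusted p. A gene this rule takes is not reported here. Deviations of same-numbered samples of the groups correlated weakly (0.12, 0.02 and 0.12), against -0.14 to 0.02 for samples of unlike number. The samples were not paired, and a fit with a replicate block served as an alternative. The number of arrays limits the precision.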

Additional observations from a re-analysis of the deposited data

How the results depend on the processing

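Hk2, Pdk2 and Pfkfb1 kept their call under all 19 alternatives run, of which the second scan day alone and leaving out DDC injury replicate 1 are the same samples, and no called member changed direction. Averaging the 3 no-injury arrays left 2 members higher and 1 lower (342 and 206 of all genes). Leaving out single arrays gave 2 to 13 members higher and 1 to 9 lower (350 to 3693 and 164 to 3146 of all genes), and the lowest counts came without no-injury replicate 2. Array weights gave 17 and 10 members (4399 and 4177 of all genes). Counting all 6 arrays gave 13 and 6 (3849 and 3626 of all genes), and adding the replicate block to that fit 10 and 5 (2839 and 2726 of all genes). Keeping outlier spots, an alternative chosen after seeing the data, left 9 higher. The median of all genes moved from -0.07 to 0.07 with normexp. Directions of members not called in the report's fit changed, and the cause was not tested. Normexp gave Hk3 0.253, Aldoc -0.224 and Adm 0.157. Quantile normalization gave Hk3 0.134, Gpi1 -0.218, Gapdh -0.0325, Eno1 -0.202 and Adm 0.184. The authors' values gave Hk3 0.0731, Gpi1 -0.0768, Aldoa -0.0940, Aldoc -0.209, Eno1 -0.179 and Adm 0.156. Array weights gave Hk3 0.594, Aldoc -0.199, Eno1 -0.0395, Slc16a1 0.00398 and Adm 0.211. The second scan day alone gave Hk1 0.00202, Hk3 0.797 (called, limma adjusted p = 0.0419), Aldoc -0.276, Eno1 -0.0172, Epas1 0.0472 and Adm 0.232. Without single arrays, differences ran from -0.122 to 0.0643 for Hk1, from -0.733 to 0.797 for Hk3, from -0.00723 to 0.0267 for Gpi1, from -0.276 to 0.256 for Aldoc, from -0.0172 to 0.0743 for Eno1, from -0.437 to 0.0472 for Epas1 and from -0.448 to 0.232 for Adm.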
